A study of Danio rerio with 9 samples.

Results

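The transcripts described here are 42 of the 55393 mRNA transcripts measured in zebrafish caudal fin. Each was listed at 0 in all 3 intact fin libraries and had a signal of at least 1 in all 3 libraries of fins regenerating at 3 days post amputation (3 dpa). Of the 42, 32 carried an ENSDART identifier and are called annotated, and 10 carried a TCONS identifier and are called assembled. Intact and 3 dpa values chose these transcripts, so their difference at 3 dpa is a description, and the 7 dpa libraries are the ones the choice did not use.

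Total RNA came from wild-type fish, with 3 libraries from intact caudal fins as controls (0 dpa), 3 from regenerated fins at 3 dpa and 3 at 7 dpa after fin removal. The sources used here do not give strain, sex or age, nor how many fish went into a library. The spread behind every p-value is that between libraries, and it may be technical. The deposited value is a signal per transcript with 2 decimals whose unit is not stated, so sequencing depth is unknown. Whether it was divided by transcript length is also not stated, so ranks across transcripts order the deposited values only. The mRNA total lay between 425050 and 441930 in intact fin, 408532 and 417436 at 3 dpa, and 406536 and 428538 at 7 dpa. In these bulk samples, a change in the number of cells of a type and a change in RNA per cell cannot be told apart.

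After amputation of a fin, epidermis covers the stump and a blastema, a mass of proliferating progenitor cells, forms beneath it. The fin then grows out with new bone, blood vessels and skin. A gene can be read into several transcripts, and programs that assign reads to transcripts divide reads that fit more than one of them. A transcript listed at 0 can therefore belong to a gene with signal on another transcript. None of the 42 identifiers (0 in each table) matched the gene tables used, which hold gene and RefSeq identifiers, so no gene name, function or sequence is given, the sister transcripts of a gene were not examined, and tissue markers were not checked.

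At 3 dpa most of the 42 transcripts were at low signal. Their median signal over the 3 libraries ran from 1.12 to 35.22, with 17 under 2, 16 between 2 and 5, and 9 at 5 or more. Of the 9, 8 were annotated and 1 was assembled. Only 3 transcripts, all annotated, had a median of 10 or more.

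ENSDART00000133203 was the highest annotated transcript, with signals of 35.22, 34.08 and 38.33 at 3 dpa and 8.76, 8.29 and 2.74 at 7 dpa. The 7 dpa libraries all lay below the 3 dpa libraries and all above 0. TCONS_00067423 was the highest assembled transcript, at 5.80, 3.93 and 6.55 at 3 dpa and 2.06, 2.90 and 1.39 at 7 dpa. It had the same order of groups at a lower signal.

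ENSDART00000039969, an annotated transcript that ranked 2 and was singled out after its values were seen, had signals of 24.54, 22.03 and 25.44 at 3 dpa and 16.02, 9.29 and 0 at 7 dpa. Its 3 dpa libraries were close to each other, whereas its 7 dpa libraries ran from the highest 7 dpa signal of any of the 42 down to a listed 0. The annotated transcript that ranked 3 stood at 11.53, 5.84 and 12.13 at 3 dpa and 2.67, 1.65 and 2.37 at 7 dpa, without overlap. The transcript that ranked 5, also annotated, had 13.32, 6.73 and 6.77 at 3 dpa and 0, 1.91 and 2.10 at 7 dpa. In these transcripts every 7 dpa library was below every 3 dpa library, and in 2 of them 1 library was at 0.

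**Figure D1:**
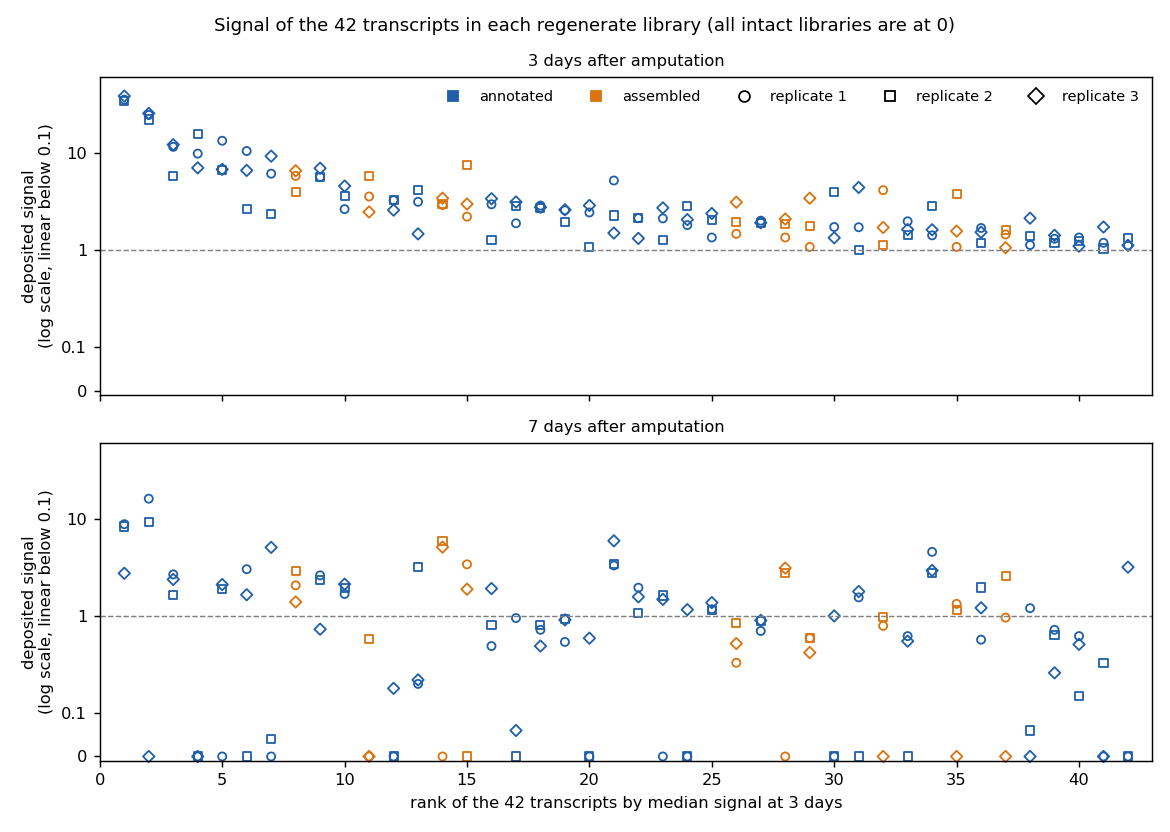
Deposited signal of each of the 42 transcripts (columns, ordered by median at 3 dpa) in the 3 libraries at 3 dpa (top) and 7 dpa (bottom), on a log axis that is linear below 0.1, with the dashed line at 1. Every 3 dpa point lies above 1, and at 7 dpa 23 transcripts have at least 1 library at 0.

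Replicates at 3 dpa differed by a median factor of 1.75 between the highest and the lowest library, and by less than 2-fold for 24 of the 42. The rule's floor of 1 in every 3 dpa library limits this factor, and it was not counted for other transcripts. For annotated transcripts the median factor was 1.70, and for assembled ones 2.22. The largest factor, 4.37, belonged to an annotated transcript with 1.72, 1.01 and 4.41 at 3 dpa, which was also the one closest to the threshold of 1. Next above the threshold were transcripts whose lowest 3 dpa value was 1.04 and 1.06. Left out by the smallest margin were transcripts at 0 in intact fin with lowest 3 dpa values of 0.97, 0.95 and 0.94. On the intact side, the nearest transcripts left out had a highest intact signal of 0.01, 0.02 and 0.05.

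The choice rests on exact zeros, and a listed 0 did not always recur in the remaining library of a group. Of 5976 mRNA transcripts at 0 in exactly 2 intact libraries, 457 (7.65%) had a signal of at least 1 in the remaining one, and the highest such signal was 26.46. The corresponding shares were 5.69% at 3 dpa and 7.38% at 7 dpa.

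The pattern was therefore read in libraries that had no part in the choice. Transcripts were chosen on 2 intact and 2 libraries at 3 dpa, in all 9 combinations, which gave 82 to 108 transcripts. The intact library left out was at 0 for 52.2% to 62.5% of them, and at 1 or more for 13 to 26 transcripts. The left-out 3 dpa library had a signal of at least 1 for 64.3% to 82.8%. It lay above the left-out intact library for 72.2% to 82.8%, and below it for 11 to 21 transcripts. In each combination the left-out 3 dpa library was the higher one for most transcripts chosen. The 9 combinations share the same libraries, so they are not separate results. The matching share over all transcripts was not counted, and nothing was tested here.

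The number of transcripts with this pattern was set beside the same rule between the other groups. Transcripts at 0 in all intact libraries and at 1 or more in all 7 dpa libraries numbered 18, of which 8 are among the 42. In the reverse direction, 16 transcripts were at 0 in every 3 dpa library and at 1 or more in every intact library, and 10 were so for 7 dpa. Between the regenerates, 8 were at 0 at 7 dpa and on at 3 dpa, and 6 were the other way round. These counts share libraries with each other and were not tested against each other. The highest count was that from intact fin to 3 dpa. As a share of the transcripts at 0 in the first group it was 0.318%, against 0.047% to 0.136% in the other pairs. Libraries at 3 dpa also correlated more closely with each other than those of the other groups did. Its part in the counts was not tested.

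**Figure D2:**
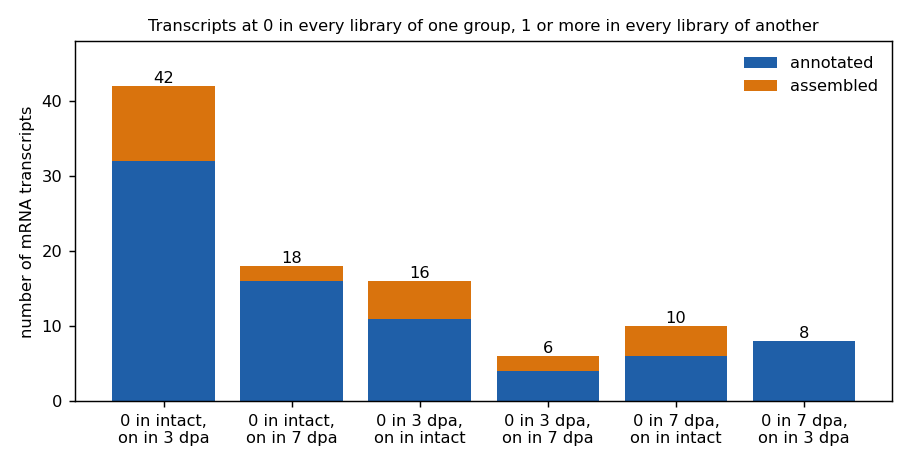
Number of mRNA transcripts at 0 in every library of a group and at 1 or more in every library of another, for each ordered pair of groups, with annotated and assembled transcripts stacked. The pair of intact fin and 3 dpa holds 42 transcripts, against 6 to 18 in the other pairs.

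Of the 10 transcripts on at 7 dpa that are not among the 42, only 1 was at 0 in all 3 dpa libraries. Another 4 were at 0 in 2 of them, 4 in 1 and 1 in none. That 1 transcript had 6.03, 0.97 and 7 at 3 dpa and 2.31, 8.63 and 3.95 at 7 dpa, and missed the rule by a single library. So most of these 10 had a value above 0 in at least 1 library at 3 dpa, which could be as low as 0.23 in a single library.

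Assembled transcripts made up 23.8% of the 42, 19.0% of the mRNA table and 18.1% of the 19687 other transcripts at 1 or more in every 3 dpa library. Among the 13226 transcripts at 0 in every intact library they were 8.74%. That share counts 8221 annotated transcripts at 0 in all 9 libraries and 0 assembled ones. Of the transcripts at 0 in intact fin with a signal in at least 1 regenerate library, 32 of 3849 annotated (0.831%) and 10 of 1156 assembled ones (0.865%) met the rule. On this base the shares of both classes lay close together, a difference that was not tested.

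At 7 dpa the 42 transcripts were in differing states. The rule put all of them at 1 or more in every 3 dpa library and left 7 dpa free, which favours a wider spread at 7 dpa. A signal of at least 1 in every 7 dpa library was found for 8 of them, in 2 libraries for 11, in 1 library for 8 and in no library for 15. Counted by zeros, 19 were above 0 in all 7 dpa libraries, 15 were at 0 in 1, 7 were at 0 in 2 and 1 was at 0 in all of them. The numbers at 0 were 13, 11 and 8 in the 7 dpa libraries 1, 2 and 3.

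The transcript back at 0 throughout was ENSDART00000141225, with 9.82, 15.62 and 7.01 at 3 dpa and 0, 0 and 0 at 7 dpa. It ranked 4 at 3 dpa. TCONS_00020132 had 3.56, 5.74 and 2.47 at 3 dpa and 0, 0.58 and 0 at 7 dpa. An annotated transcript that ranked 12 had 3.26, 3.25 and 2.58 at 3 dpa and 0, 0 and 0.18 at 7 dpa. In these 3 transcripts all 7 dpa libraries were below 1 and all 3 dpa libraries above 2.

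At the other end, ENSDART00000081759 had the highest lowest value at 7 dpa, with 3.30, 3.41 and 5.91 against 5.20, 2.27 and 1.5 at 3 dpa. Its groups overlapped. The other 6 annotated transcripts at 1 or more in every 7 dpa library ranked 1, 3, 10, 22, 25 and 34 at 3 dpa, and the assembled one was TCONS_00067423. The transcript ranked 10 stood at 2.64, 3.58 and 4.56 at 3 dpa and at 1.68, 1.94 and 2.12 at 7 dpa.

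The median at 7 dpa was below that at 3 dpa for 38 of the 42 and above it for 4. The rule set a floor on the 3 dpa values only, which favours a lower median at 7 dpa. The matching share over all tested was not counted. The 4 with a higher median were named after their values were seen. ENSDART00000049976 went from 1.42, 2.85 and 1.62 to 4.55, 2.73 and 2.93. ENSDART00000081759 is described above. TCONS_00061576 had 2.91, 3.00 and 3.42 at 3 dpa and 0, 5.87 and 5.09 at 7 dpa, and TCONS_00010451 had 1.35, 1.87 and 2.09 and then 0, 2.75 and 3.10. In both assembled cases 7 dpa library 1 was at 0 and the other libraries were above the 3 dpa range.

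At 7 dpa the median signal was 34.6% of that at 3 dpa for the middle transcript of the 42. It was 27.6% for annotated and 54.6% for assembled transcripts. The rule favours a lower median at 7 dpa here too. At least 1 library at 0 was seen in 16 of 32 annotated (50%) and 7 of 10 assembled transcripts (70%). All 7 dpa libraries were at 1 or more in 7 annotated transcripts (21.9%) and 1 assembled one (10%). With 10 assembled transcripts these class differences were not tested.

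Summed over the 42, the signal was 192.71, 177.05 and 194.14 in the 3 dpa libraries and 64.06, 63.40 and 57.33 in the 7 dpa libraries. As a share of the mRNA total that was 0.0462%, 0.0427% and 0.0475%, and then 0.0149%, 0.0156% and 0.0134%. The 2 highest transcripts held 31.0% to 32.8% of the sum at 3 dpa. At 7 dpa they held 38.7%, 27.7% and 4.78%, so the sum was similar in the 3 libraries while its makeup was not. Without both, the sum was 120.94 to 132.95 at 3 dpa and 39.28, 45.82 and 54.59 at 7 dpa. The rule required a signal of at least 1 in every 3 dpa library and left 7 dpa free, which favours a lower sum at 7 dpa. No matching sum was made for other transcripts.

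**Figure D3:**
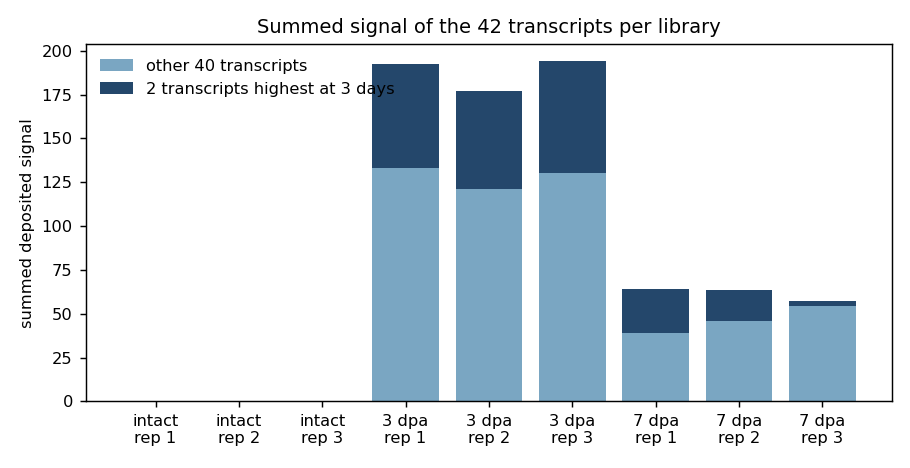
Summed deposited signal of the 42 transcripts in each of the 9 libraries, with the 2 transcripts highest at 3 dpa in dark and the other 40 in light. The sums lie between 177.05 and 194.14 at 3 dpa and between 57.33 and 64.06 at 7 dpa, and the dark part nearly vanishes in 7 dpa library 3.

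Zeros at 7 dpa were set beside those of other transcripts on at 3 dpa. Of 19308 transcripts at 1 or more in all 3 dpa libraries and above 0 in every intact library, 94.0% were at 1 or more in every 7 dpa library and 0.813% had a 7 dpa zero. With 1 intact zero (300 transcripts) these shares were 46.3% and 17.7%, and with 2 intact zeros (79 transcripts) 21.5% and 44.3%. For the 42 they were 19.0% and 54.8%. The median signal at 3 dpa was 5.73 without an intact zero and 2.50, 2.48 and 2.20 with 1, 2 and 3. Among transcripts with a 3 dpa median under 5 the share with a 7 dpa zero was 1.57%, 18.3%, 43.5% and 54.5% in the same order. These shares are a description and were not tested.

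**Figure D4:**
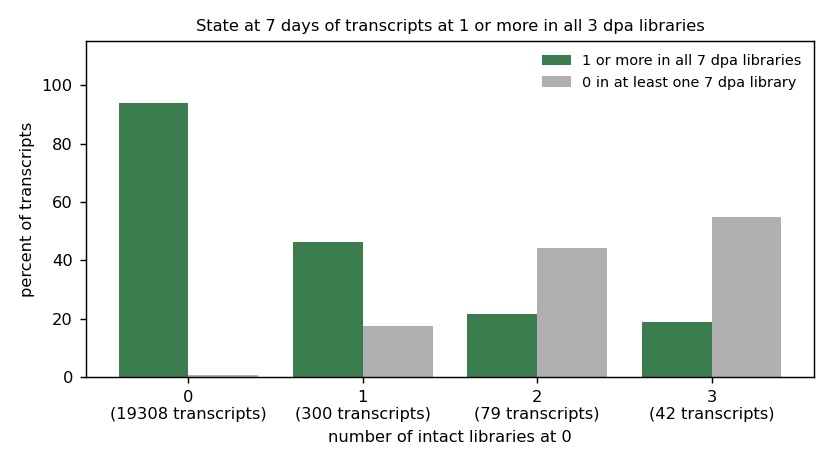
Percent of transcripts at 1 or more in all 3 dpa libraries that were also at 1 or more in all 7 dpa libraries (green) or at 0 in at least 1 of them (grey), by the number of intact libraries at 0. From left to right the green bars go from 94.0% to 19.0% and the grey bars from 0.813% to 54.8%.

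All mRNA transcripts were compared with limma, which tests log2(signal + 1) for each transcript and borrows information on the spread across transcripts. Calls are those with an adjusted p under 0.05 (Benjamini-Hochberg) over the 25001 transcripts at 1 or more in at least 3 libraries. The rule itself puts all 42 in that set. At 3 dpa against intact fin 41 of the 42 were called higher, against 22% of all tested, a count that the rule largely sets in advance. The transcript not called was ENSDART00000159226, with 1.12, 1.32 and 1.12 at 3 dpa and 0, 0 and 3.17 at 7 dpa.

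From 3 to 7 dpa 20 of the 42 transcripts were called lower, against 10.4% of all tested, and 0 were called higher, against 11.2%. Among the 19687 other transcripts at 1 or more in every 3 dpa library, 13.1% were called lower and 11.9% higher. The rule used the 3 dpa values, which favours a fall, and its part in the count was not tested. Without adjustment 28 were lower and 1 higher at a limma p under 0.05. The share of all tested at that limit was not counted, so these counts have no reference here. Of the 20 called, 16 were annotated and 4 assembled. Over all tested, 2361 of 19856 annotated and 250 of 5145 assembled transcripts were called lower. The median log2 change was -0.99 for the 42 and 0.04 for all tested. Every 7 dpa library lay below every 3 dpa library for 24 of the 42, against 18.8% of all tested, and above for 0, against 22.1%. For the 15 transcripts below 1 in every 7 dpa library, the floor of 1 at 3 dpa alone gives that order. The matching share among other transcripts on at 3 dpa was not counted, so the 24 are a description.

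Among the named transcripts, 4 were picked for a high 3 dpa signal or for the largest called fall, so their fitted changes are given as a description. On the log2(signal + 1) scale the fitted change was -2.40 (SE 0.31) for ENSDART00000133203 and -1.05 (SE 0.21) for TCONS_00067423, with no overlap between the groups of either. TCONS_00020132 had the largest called fall among assembled transcripts. Its fitted size was set by the pseudocount, at -2.03 with 1, -2.71 with 0.5 and -4.33 with 0.1, as 2 of its 7 dpa libraries were at 0. For ENSDART00000141225, at 0 in all 7 dpa libraries, no fold is given. ENSDART00000039969 was not called, with a fitted change of -2.16, an SE of 0.85 and a limma adjusted p of 0.103. Its libraries at 7 dpa ranged from 16.02 to 0, so its fitted size also depends on the pseudocount. ENSDART00000081759 had a fitted change of 0.46 (SE 0.32, limma adjusted p = 0.351), which was 0.83 without 3 dpa library 1 and 0.17 without 3 dpa library 3, and was not called in either. The fitted change of ENSDART00000049976 was 0.58 (SE 0.22, limma adjusted p = 0.0933).

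**Figure D5:**
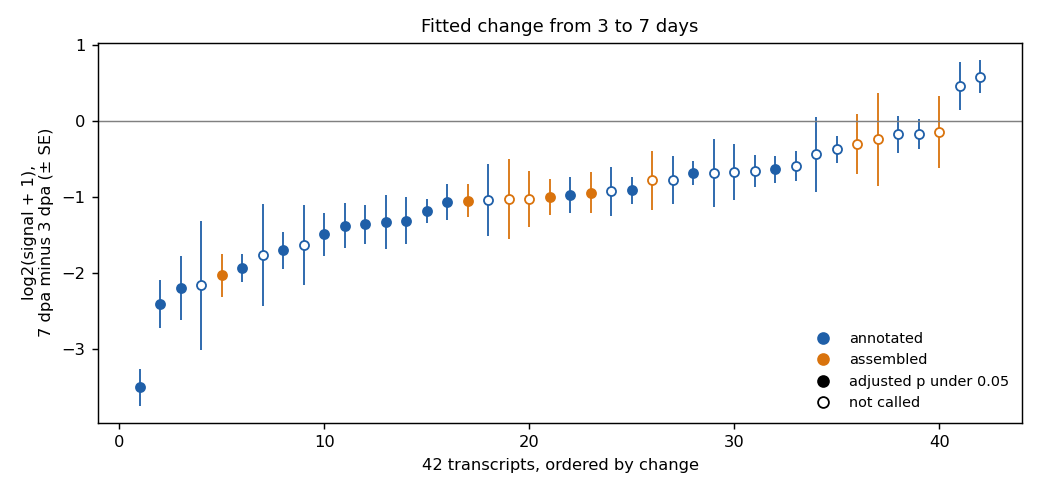
Fitted difference of log2(signal + 1) between 7 and 3 dpa with its SE for each of the 42 transcripts, ordered by size, filled where the limma adjusted p is under 0.05. The 20 filled points all lie below 0, and 2 open points lie above 0.

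The intact libraries of these transcripts are all at 0 and add no spread to the estimate shared by the 3 groups, so the SEs above may be too small. With only the 3 and 7 dpa libraries in the fit, 19 of the 42 were called lower. With a pseudocount of 0.1 in place of 1 the number was 10. Over all tested, calls in either direction numbered 5260 of 23003 in the first of these fits and 5168 of 25001 in the second. Without 3 dpa library 1, 2 or 3, lower calls among the 42 numbered 7, 7 and 6. Only 27 of the 42 then passed the filter. With a looser filter that kept all 42, lower calls numbered 16, 18 and 12. Without a 3 dpa library, calls over all tested in either direction fell too. They were 3640 of 24588, 4230 of 24612 and 3230 of 24613 with the first filter. With the looser filter they were 3604 of 26155, 4252 of 26196 and 3195 of 26161. With all libraries, 2611 of 25001 were called lower and 2812 higher. Among the 42, the 0 higher calls became 1 without 3 dpa library 2, with either filter, and 1 without 7 dpa library 1.

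At 7 dpa against intact fin 14 of the 42 were called higher, against 12.4% of all tested. An unadjusted limma p under 0.05 was found for 25, and the share of all tested at that limit was not counted. The rule set the intact values to 0, which favours a call, and no fold is given against a group at 0. Of the called, 13 were annotated and 1 was TCONS_00067423. Over all tested, 2632 of 19856 annotated and 461 of 5145 assembled transcripts were called higher. All 8 transcripts at 1 or more in every 7 dpa library were called, which their 0 in intact fin and this choice largely set in advance. The lowest 7 dpa library was above the intact libraries for 19 transcripts, those with no zero at 7 dpa, against 18.7% of all tested. With intact values put at 0 by the rule, that count only says that no 7 dpa library was at 0. The 18.7% covers transcripts whose intact values were not so fixed, so it is no like reference. ENSDART00000039969, at 16.02, 9.29 and 0, had a limma adjusted p of 0.0600.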

How the data were processed

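Caudal fin RNA of 9 libraries in 3 groups was read on an Illumina HiSeq instrument after fragmentation, random priming and dUTP second strand synthesis, per the labels' protocols. RSEM, TopHat2 2.0.3.12, edgeR and cutadapt are named, without roles, per the submitters' processing notes, beside a human genome build. Which zebrafish build was used is not stated in the sources used here. The mRNA and lncRNA tables hold, as deposited by the authors, a signal per transcript and library, not counts. No 2 libraries were identical, and log2 values correlated at 0.948 to 0.967 within groups.

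The rule for the 42 transcripts was applied to the deposited values. The 42 transcripts, the comparisons and the alternatives were chosen with earlier results of these data known. All 25001 mRNA transcripts at 1 or more in at least 3 libraries were tested with limma 3.58.1 in R 4.3.3, on log2(signal + 1) with trend and robust settings, all libraries in one model and no covariate, two-sided. Other counts were made in Python 3.11.15 with pandas 2.3.3. Scripts were tested on simulated data. Named transcripts are, per class, the highest at 3 dpa, the largest called fall and rise from 3 to 7 dpa (no rise was called), and the highest lowest 7 dpa value. Others named were chosen after their values were seen. Alternatives were other pseudocounts, filters, scalings (TMM-type factors, quantile normalization), a non-robust fit, fits on 2 groups, a replicate block, left-out libraries and other thresholds of the rule. The circRNA table was not used.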

Additional observations from a re-analysis of the deposited data

Results flagged for a closer look

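For 4 named transcripts the direct limma comparison of 7 with 3 dpa passed the threshold, but the choice of these transcripts favoured that outcome and the values are no independent evidence of a fall. ENSDART00000141225 and TCONS_00020132 were picked for the largest called fall, ENSDART00000133203 and TCONS_00067423 for the highest 3 dpa signal, and the rule had fixed the intact values at 0. The limma adjusted p was 0.00113 for ENSDART00000133203, 0.00922 for TCONS_00067423, 0.000141 for ENSDART00000141225 and 0.00154 for TCONS_00020132. All 3 libraries at 7 dpa lay below all 3 at 3 dpa in each of them.

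In the lncRNA table, outside the mRNA comparisons, 1 transcript met the same rule. ENSDART00000176730 was at 0 in every intact library, at 1.12, 1.19 and 1.13 at 3 dpa and at 0.49, 0.92 and 0.54 at 7 dpa. The reverse pattern, 0 at 3 dpa and 1 or more in intact fin, was also met by 1 lncRNA.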

How the results depend on the processing

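The number of transcripts meeting the rule was 64, 15 and 6 with a 3 dpa threshold of 0.5, 2 and 5, and 42 to 72 when single libraries were left out. Those at 1 or more in all 7 dpa libraries then numbered 4 and 2 with thresholds of 2 and 5, and 8 to 17 without single libraries. Those at 0 in all 7 dpa libraries numbered 4 with a threshold of 0.5, and 1 to 6 without single libraries. Leaving out a library can only keep or add transcripts in these counts, so the lower end of each range without single libraries was fixed. The assembled share was 0% at a threshold of 5, and 23.3% to 34.9% without single libraries. The rule largely sets the calls at 3 dpa against intact fin in advance, so their counts under any setting are a description. A filter at 5 in 3 libraries kept only 7 of the 42, of which 7 were called at 3 dpa, 3 at 7 dpa against intact fin and 5 between the times. Over all 12567 then tested, calls in either direction numbered 8169, 5049 and 4657 in the same order. Between the times the count of lower calls was 10 with a pseudocount of 0.1, beside 5168 of 25001 called in either direction over all tested. At 7 dpa against intact fin 8 were called with only those groups, since only 8 then passed the filter. Over all tested in that fit, 5118 of 23649 were called in either direction. Without single libraries the calls ranged from 23 to 42 at 3 dpa, 10 to 18 at 7 dpa against intact fin and 6 to 21 between the times. Part of that range comes from the filter, which then kept 27 transcripts. Calls between the times over all tested also fell without a 3 dpa library, as given above. With a looser filter, chosen after seeing the data, leaving out 3 dpa libraries gave 38, 13 to 14 and 12 to 18. Samples with the same replicate number did not deviate together (correlations of -0.0230 to 0.0706). With a replicate block 41, 14 and 19 of the 42 were called in the 3 comparisons. Over all 25001 tested with that block, calls in either direction numbered 11900, 5542 and 4619. Depth is unknown, so how far a listed 0 reflects few reads cannot be told.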
